A study of Rattus norvegicus with 28 samples.

Results

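Arc, Npas4, Bdnf and Ntrk2 are 4 genes of neuronal plasticity, followed here across rat orbitofrontal cortex, a frontal region that tracks the value of outcomes, of animals that had self-administered methamphetamine (meth) or saline. They were taken by Ensembl identifier (ENSRNOG00000043465, ENSRNOG00000020009, ENSRNOG00000047466 and ENSRNOG00000018839, in that order) with the gene names that came with that choice, since the count files carry identifiers only. All 4 were found among 26405 counted genes, and all 4 passed the filter on low counts with 15413 genes in all. The study asked which transcripts in orbitofrontal cortex accompany the growth of meth seeking over withdrawal. Sprague Dawley rats self-administered meth or saline intravenously and were killed on withdrawal day 2 or day 35, straight from the home cage. The 4 groups were day 2 saline, day 2 meth, day 35 saline and day 35 meth, with 4 libraries each. Each library was made from tissue punches of 2 pooled rats, so 1 replicate is 1 pool and differences between individual rats cannot be read. The rats were trained in 2 independent runs, and the labels do not assign the pools to them, nor do they give the ages of the rats.

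Arc and Npas4 are immediate early genes, whose transcription starts within minutes of strong synaptic activity and calcium entry. Arc encodes a protein that moves to active dendrites and promotes the removal of AMPA-type glutamate receptors from synapses. Npas4 encodes a neuron-specific transcription factor of the bHLH-PAS family that shapes inhibitory synapses and, in rodents, activates Bdnf. Bdnf encodes brain-derived neurotrophic factor, a secreted ligand that strengthens synapses and is itself regulated by activity, and Ntrk2 encodes its receptor TrkB, which neurons make in a full-length kinase form and astrocytes largely in a truncated form. The counts are summed over each gene, so transcripts from different Bdnf promoters and the different TrkB forms cannot be separated.

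The libraries held 20.33 to 48.47 M (mega) gene reads. Depth differed between the groups: 20.33 to 23.54 M in day 2 saline, 24.97 to 37.48 M in day 2 meth, 31.85 to 48.47 M in day 35 saline and 36.72 to 43.98 M in day 35 meth libraries. The 4 libraries of a group shared 1 sequencing index, and each of lanes 1 to 4 held 1 library of every group, so index and group cannot be told apart. Levels are given as CPM, the reads of a gene per M reads of the TMM-scaled library, and they are compared between libraries for the same gene, not between genes of different length. The tissue could not be checked against cell type markers because those genes could not be matched to identifiers. In such bulk tissue, fewer cells of a type and less RNA per cell cannot be told apart.

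In the edgeR model of all 16 libraries without a lane block, 0 of the 4 genes passed the test across all genes in any of 7 comparisons. This model called from 0 to 1.83% of genes tested in these comparisons. Under other settings, Npas4 passed between the days averaged over drug groups (DESeq2, edgeR with lane as a block, and edgeR without day 35 saline replicate 11). That comparison was chosen after the values were seen, and in it DESeq2 called 482 genes and the main edgeR model 163. Ntrk2 passed between the days in meth rats (DESeq2, and edgeR without day 2 meth replicate 1), where DESeq2 called 554 genes and the main edgeR model 282. Arc and Npas4 varied up to several-fold between pools of the same group and varied together. Bdnf varied less than these but more than most genes, and Ntrk2 less than most, counting genes of all levels. On the fold scale Npas4 had the largest difference of the 4 genes, a higher mean level at day 35 than at day 2 in saline and in meth rats, and Ntrk2 the narrowest intervals, with its highest mean in day 2 meth rats. Between meth and saline rats, the levels of each of the 4 genes overlapped on both days. The groups did not overlap for 5.45% of genes tested at day 2 and 3.46% at day 35.

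Arc stood at 260, 81.2, 179 and 106 CPM in the day 2 saline pools. The day 2 meth pools held 102, 171, 122 and 98.6 CPM. The day 2 groups overlapped, with every meth pool inside the range of the saline pools. At day 35, Arc stood at 374, 351, 142 and 210 CPM in the saline pools and at 250, 395, 112 and 210 CPM in the meth pools. These ranges overlapped as well. Against day 2 of the same drug group, 3 of 4 meth pools and 2 of 4 saline pools at day 35 lay above all day 2 pools. The group means were 157 ± 80.5 CPM in day 2 saline, 123 ± 33.4 in day 2 meth, 269 ± 112 in day 35 saline and 242 ± 117 in day 35 meth rats (SD, n = 4 each). The order of means thus ran from day 2 meth through day 2 saline and day 35 meth to day 35 saline, and no neighbouring pair in it was separated beyond its spread.

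Npas4 stood at 13.5, 6.78, 8.54 and 5.98 CPM in the day 2 saline pools. The day 2 meth pools held 8.75, 12.4, 8.46 and 7.27 CPM. At day 2 the Npas4 transcript thus ran from 5.98 to 13.5 CPM over the 8 pools, and the ranges of saline and meth pools overlapped. At day 35, Npas4 stood at 43.2, 32.2, 8.99 and 16.0 CPM in the saline pools and at 21.6, 25.8, 21.4 and 11.6 CPM in the meth pools. In each drug group, 3 of 4 pools at day 35 lay above all 4 pools at day 2. The means were 8.71 ± 3.39 CPM in day 2 saline, 9.22 ± 2.21 in day 2 meth, 25.1 ± 15.5 in day 35 saline and 20.1 ± 6.02 in day 35 meth rats (SD, n = 4 each). In the order of means, day 2 saline and day 2 meth were neighbours at the bottom and day 35 meth and day 35 saline neighbours at the top, and neither pair differed beyond its spread.

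Bdnf, the ligand, stood at 30.5, 34.8, 34.3 and 28.8 CPM in the day 2 saline pools. The day 2 meth pools held 31.2, 26.7, 30.6 and 29.4 CPM. At day 35 it stood at 30.3, 40.5, 34.0 and 25.9 CPM in the saline pools and at 38.6, 35.6, 31.3 and 29.5 CPM in the meth pools. All 4 ranges shared a common stretch near 30 CPM. The means were 32.1 ± 2.93 CPM in day 2 saline, 29.5 ± 2.01 in day 2 meth, 32.7 ± 6.19 in day 35 saline and 33.8 ± 4.12 in day 35 meth rats (SD, n = 4 each), and no neighbours in this order differed beyond their spread.

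Ntrk2, the receptor, stood at 298, 308, 326 and 303 CPM in the day 2 saline pools. The day 2 meth pools held 315, 351, 333 and 360 CPM. Of these, 3 meth pools lay above all saline pools and 1 lay among them. At day 35 it stood at 327, 326, 295 and 321 CPM in the saline pools and at 313, 305, 311 and 298 CPM in the meth pools. All 4 day 35 meth pools lay below all 4 day 2 meth pools. The means were 309 ± 11.9 CPM in day 2 saline, 340 ± 19.8 in day 2 meth, 318 ± 14.9 in day 35 saline and 307 ± 6.74 in day 35 meth rats (SD, n = 4 each). From the highest, the order ran day 2 meth, day 35 saline, day 2 saline and day 35 meth, and each neighbouring pair overlapped.

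**Figure D1:**
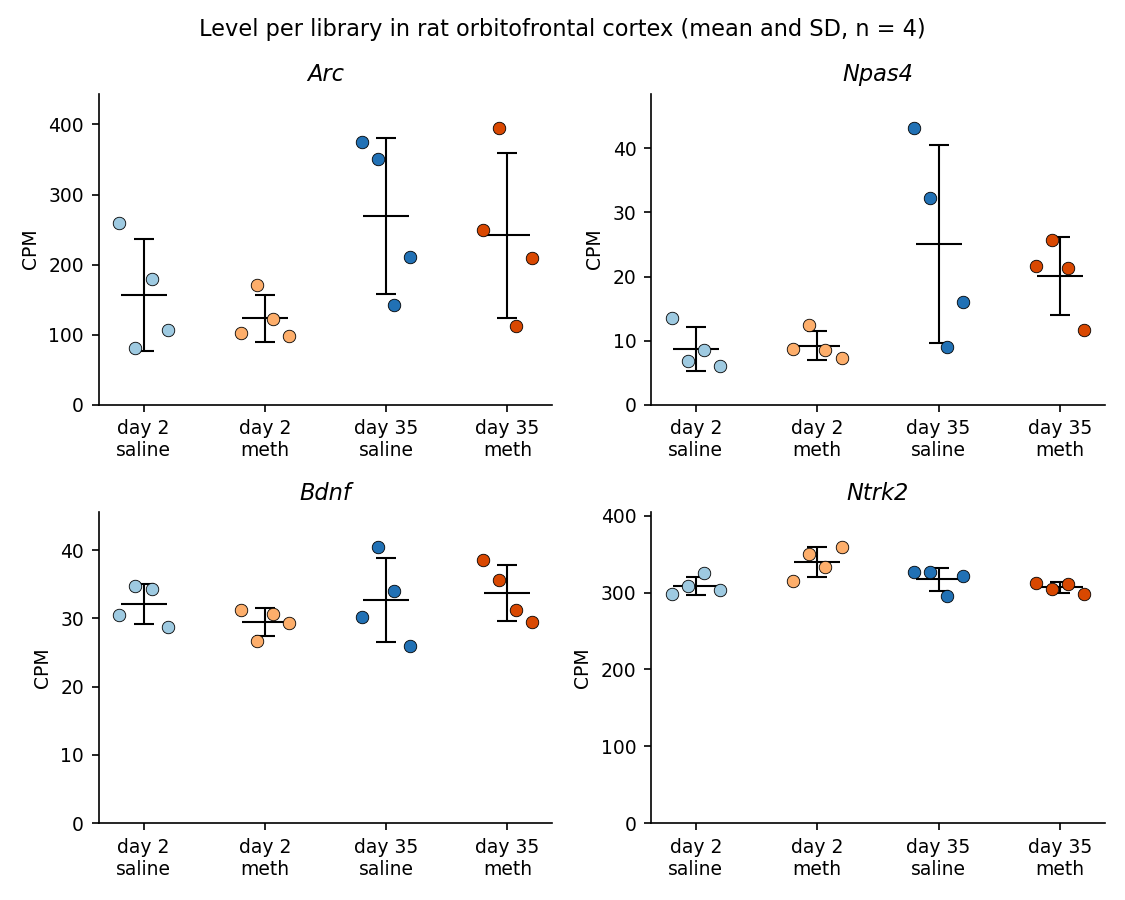
Level of Arc, Npas4, Bdnf and Ntrk2 in CPM (vertical axes from 0) in each library of the 4 groups; points are libraries of 2 pooled rats in order of replicate number, and bars show the mean and SD of 4. Arc ranges from 81.2 to 395 CPM and Npas4 from 5.98 to 43.2 CPM with wide spread at day 35, whereas Bdnf stays between 25.9 and 40.5 CPM and Ntrk2 between 295 and 360 CPM.

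Of the 4 genes, the immediate early genes had the widest spread between pools. Over the 16 libraries the highest level of Npas4 was 7.22 times the lowest, and that of Arc 4.87 times. For Bdnf this ratio was 1.56 and for Ntrk2 1.22. The within-group SD on the log2 scale was 0.65 for Arc and 0.62 for Npas4, against a median of 0.096 over the 15413 genes. Only 0.227% of these genes had a larger within-group SD than Arc and 0.26% a larger one than Npas4. The SD of Bdnf was 0.18, exceeded by 19.5% of genes, and that of Ntrk2 was 0.063, exceeded by 72.5%. Counting error was small beside this spread: Arc was counted with 1914 to 18035 reads per library, a counting error of 0.745 to 2.29% of its level, while its coefficient of variation within groups was 27 to 51.4%. Npas4 had the fewest reads, 141 to 2079, a counting error of 2.19 to 8.42%, against 24 to 61.7% within groups. For Ntrk2, with 6078 to 15757 reads, the pools of a group varied by 2.2 to 5.83% against a counting error of 0.797 to 1.28%. The shares of genes above were taken over genes of all levels, and genes of low level tended to have a larger SD. No rank among genes of similar level was taken, so Ntrk2 is not shown to vary little for its level.

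**Figure D2:**
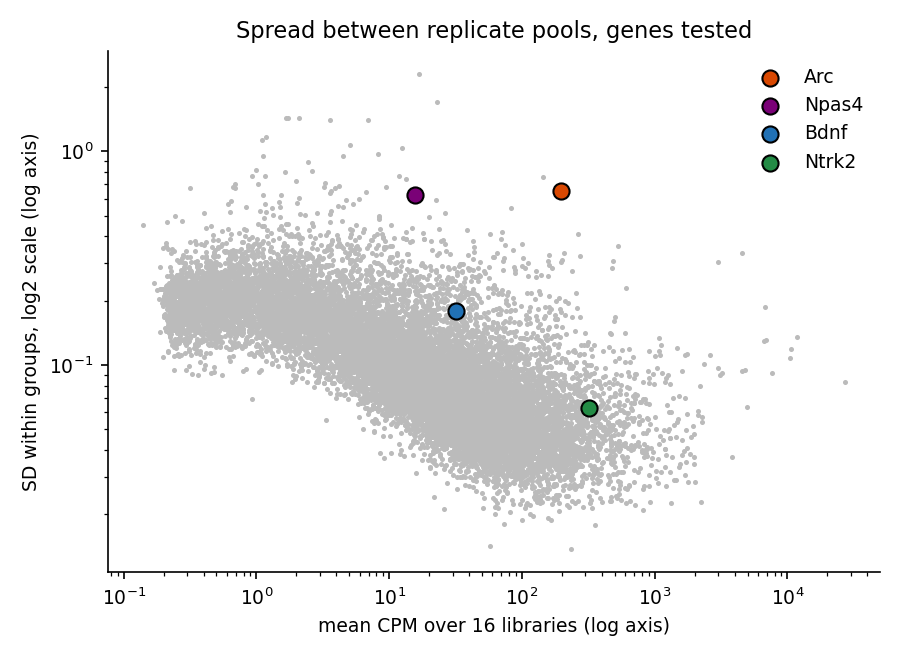
Within-group SD of log2(CPM + 0.5) over the 16 libraries (vertical log axis) against mean CPM (horizontal log axis) for the 15413 genes tested (grey) and the 4 genes (coloured). Arc (0.65) and Npas4 (0.62) lie at the upper edge of the cloud, Bdnf (0.18) in its upper part and Ntrk2 (0.063) within it.

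Arc and Npas4 varied together from pool to pool. In each of the 4 groups the same pool had the highest Arc and the highest Npas4: replicate 13 in day 2 saline, 2 in day 2 meth, 9 in day 35 saline and 6 in day 35 meth rats. The lowest pool was the same for both genes in 2 of the 4 groups, day 2 meth and day 35 saline. Over the 16 libraries their log2 levels had a Pearson r of 0.82 (permutation p = 0.0001, adjusted over the 6 pairs of these genes p = 0.0006) and a Spearman rho of 0.84 (permutation p = 0.00011, adjusted p = 0.00066). Without the 2 libraries farthest from the median of Arc (day 2 saline replicate 14 and day 35 meth replicate 6), r was 0.79. The relation also held inside groups and lanes: on deviations from the group means r was 0.73 (p = 0.0075 permuting within groups, adjusted p = 0.045) and rho 0.77, and on deviations from the lane means r was 0.79 (p = 0.0048 permuting within lanes, adjusted p = 0.029). Day 35 meth replicate 7 was the pool farthest out of step, with the lowest Arc of its group (112 CPM) beside an Npas4 of 21.4 CPM.

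Bdnf followed neither of these genes closely. Its r was 0.29 with Arc (permutation p = 0.28, adjusted p = 0.50) and 0.31 with Npas4 (permutation p = 0.25, adjusted p = 0.50). Spearman's rho was 0.215 with Arc (permutation p = 0.43, adjusted p = 0.72) and 0.28 with Npas4 (permutation p = 0.30, adjusted p = 0.72). On deviations from the group means the 2 values of r were 0.135 and 0.177, and without the 2 libraries farthest from the median of the first gene they were 0.34 and 0.22. In no group did the pool highest in Arc have the highest Bdnf, nor the pool lowest in Arc the lowest Bdnf. The pool lowest in Npas4 was also lowest in Bdnf in 2 of the 4 groups, as often as for Arc and Npas4. The ligand and its receptor did not track each other either: Bdnf and Ntrk2 had an r of -0.26 (permutation p = 0.34, adjusted p = 0.50) and a rho of -0.19 (permutation p = 0.48, adjusted p = 0.72), with r at 0.03 on deviations from the group means and -0.41 without the 2 libraries farthest from the median of Bdnf. For Ntrk2 with Arc, r was -0.11 (permutation p = 0.69, adjusted p = 0.82) and rho -0.065 (permutation p = 0.81, adjusted p = 0.86). For Ntrk2 with Npas4, r was -0.0037 (permutation p = 0.99, adjusted p = 0.99) and rho 0.05 (permutation p = 0.86, adjusted p = 0.86). On deviations from the group means the sign turned for both, with r at 0.25 for Ntrk2 with Arc (permutation p within groups = 0.35, adjusted p = 0.69) and 0.424 for Ntrk2 with Npas4 (permutation p within groups = 0.145, adjusted p = 0.435). With 16 pools, such p-values do not show that these genes vary independently. Npas4 and Ntrk2 also shared the lowest pool in 2 of the 4 groups and the highest in 1.

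**Figure D3:**
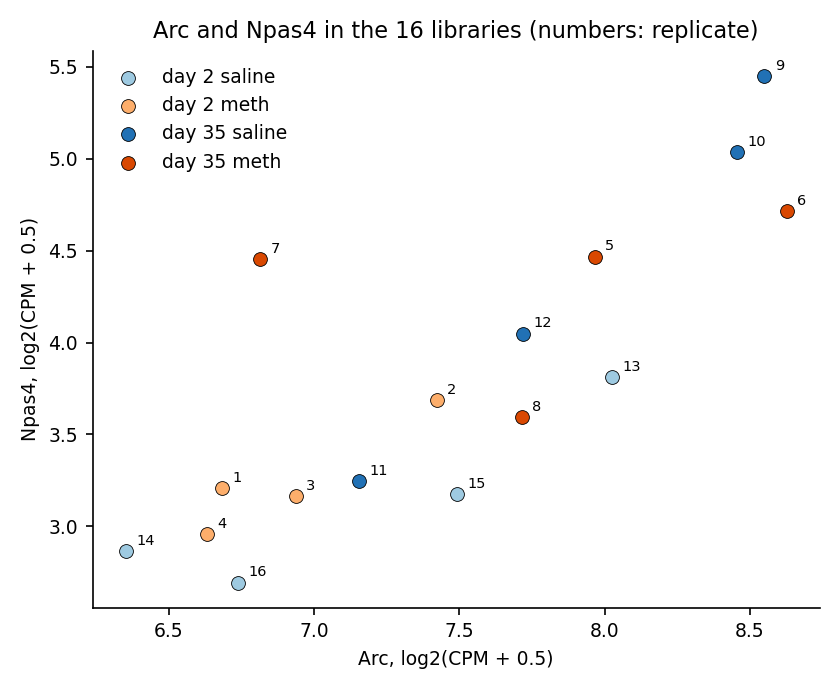
Npas4 (vertical) against Arc (horizontal), both as log2(CPM + 0.5), in the 16 libraries; colour gives the group and the number beside a point its replicate. The points follow 1 upward trend (r = 0.82), with day 35 meth replicate 7 above the rest at a low Arc level.

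The Bdnf gene is transcribed from several promoters, and the sequences just upstream of their starts are shown because NPAS4 (with its partner ARNT2) and the factor CREB each recognise a short core of letters. In RefSeq (GRCr8), Npas4 had 1 and Bdnf 6 windows covering the 250 bases before a transcript start; these sequences were matched by gene symbol, not by position in the counted build, and Arc and Ntrk2 had none. For NPAS4 the letters TCGTG were searched on both strands, and they were present in 14.2% of all 33469 windows of this length. For CREB the letters CGTCA were searched in the same way, and they were present in 18.2%. The Npas4 window held neither motif. Of the 6 Bdnf windows, 2 held the NPAS4 core, with 2 copies each, and 1 of these also held 1 copy of the CREB letters; no copies overlapped. A copy on the minus strand reads as CACGA in the lines printed here. Both are printed 5′ to 3′ on the plus strand, with these motifs in capitals, chr3:116619383-116619632 first and chr3:116637608-116637857 second.
Bdnf, first window: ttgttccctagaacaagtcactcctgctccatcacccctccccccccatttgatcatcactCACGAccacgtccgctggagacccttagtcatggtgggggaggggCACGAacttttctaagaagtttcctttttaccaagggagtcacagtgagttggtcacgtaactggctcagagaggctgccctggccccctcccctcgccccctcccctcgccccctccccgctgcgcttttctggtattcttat
Bdnf, second window: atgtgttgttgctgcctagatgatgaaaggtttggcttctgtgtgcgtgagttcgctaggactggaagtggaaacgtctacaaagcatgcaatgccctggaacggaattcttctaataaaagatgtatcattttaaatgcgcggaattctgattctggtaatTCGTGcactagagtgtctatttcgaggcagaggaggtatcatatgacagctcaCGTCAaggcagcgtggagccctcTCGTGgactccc
A match of letters is a description of the sequence and shows no binding in these tissues. The Bdnf counts sum all starts and cannot be assigned to either window.

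Other transcripts followed Arc and Npas4 more closely than they followed each other. Over 13560 genes with a mean of at least 1 CPM, the gene most like Arc was ENSRNOG00000007607 (r = 0.969 over 16 libraries, 0.965 on deviations from the group means), followed by ENSRNOG00000016167 (r = 0.957 and 0.948). The genes most like Npas4 were ENSRNOG00000008015 (r = 0.943 and 0.90) and ENSRNOG00000042838 (r = 0.936 and 0.902). Npas4 ranked 49 among the genes most like Arc, and Arc ranked 17 among those most like Npas4. Of the 50 genes most like each, 21 were on both lists, and 0 were shared between the list of either gene and that of Bdnf or Ntrk2. The lists come from the same 16 libraries as the r between the genes, so shared entries are not separate evidence. In all, 66 genes had an r over 0.8 with Arc, 28 with Npas4, 4 with Bdnf and 13 with Ntrk2. The nearest to Bdnf were ENSRNOG00000026239 (r = 0.85) and ENSRNOG00000024737 (r = 0.82), and the nearest to Ntrk2 ENSRNOG00000023548 (r = 0.88) and ENSRNOG00000011227 (r = 0.87). These values describe 16 libraries that share preparation and depth differences, and the files give no names for these identifiers.

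At withdrawal day 2, the comparison of meth with saline rats gave the following for the 4 genes. Ntrk2 was 1.10-fold higher in meth rats, a log2 fold change of 0.14 (SE 0.041), with a 95% interval of 1.04- to 1.17-fold. Its unadjusted p was 0.0038, but it did not pass across all genes (edgeR adjusted p = 0.22), and the exact permutation test of 4 against 4 libraries gave p = 0.057 two-sided, where 0.0286 is the smallest possible. Ntrk2 was higher in meth in 4 of 4 lanes, Npas4 and Bdnf in 2 of 4 and Arc in 1 of 4. The share of all genes with such counts of lanes was not taken. The pools overlapped for each of the 4 genes, while for 5.45% of genes tested they did not. For Arc the log2 fold change was -0.34 (SE 0.46, edgeR adjusted p = 0.85) and its sign turned without day 2 saline replicate 13 (0.011). The 95% interval of Arc ran from 0.398- to 1.57-fold. For Npas4 it was 0.097 (SE 0.50, edgeR adjusted p = 0.96, interval 0.504- to 2.27-fold), which was negative without day 2 meth replicate 2 (-0.090), day 2 saline replicate 14 (-0.0088) or 16 (-0.053). For Bdnf it was -0.12 (SE 0.12, edgeR adjusted p = 0.78, interval 0.764- to 1.10-fold). In this comparison edgeR called 0.11% of genes tested, 0 of the 4 among them, and 1 of the 4 had an unadjusted p under 0.05, as had 1612 of the 15413 genes; DESeq2 and limma-voom called 0 of the 4 as well, DESeq2 giving no adjusted p for Npas4 and Bdnf.

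At withdrawal day 35, the pools of meth and saline rats overlapped for each of the 4 genes, while for 3.46% of genes tested they did not. The log2 fold changes were -0.16 for Arc (SE 0.44, edgeR adjusted p = 0.99), -0.33 for Npas4 (SE 0.41, edgeR adjusted p = 0.97), 0.052 for Bdnf (SE 0.12, edgeR adjusted p = 0.98) and -0.050 for Ntrk2 (SE 0.041, edgeR adjusted p = 0.94). Their 95% intervals ran from 0.459- to 1.75-fold for Arc, 0.428- to 1.47-fold for Npas4, 0.87- to 1.23-fold for Bdnf and 0.91- to 1.03-fold for Ntrk2. The receptor is thus bounded most tightly. The sign of Arc turned without day 35 meth replicate 7 (0.079) or day 35 saline replicate 9 (0.044), that of Npas4 without day 35 saline replicate 9 (0.078), and that of Bdnf without day 35 meth replicate 5 (-0.019) or day 35 saline replicate 12 (-0.042). edgeR called 0% of genes tested here, 902 of them having an unadjusted p under 0.05, none of these the 4 genes; limma-voom called 0 genes and DESeq2 5, none of the 4.

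Whether the meth effect changed between the days was tested directly. For Ntrk2 it was lower at day 35 than at day 2 by 0.19 on the log2 scale (SE 0.058), with an interval from -0.31 to -0.065. The unadjusted p was 0.0047 and the edgeR adjusted p 0.28, so it did not pass. The change of the effect was 0.18 for Arc (SE 0.64, edgeR adjusted p = 0.97), -0.43 for Npas4 (SE 0.65, edgeR adjusted p = 0.90) and 0.18 for Bdnf (SE 0.17, edgeR adjusted p = 0.80). edgeR called 0.136% of genes tested, 21 genes and 0 of the 4, and with lane as a block 4 genes. Of the 4 genes, 1 had an unadjusted edgeR p under 0.05, as had 1482 of the 15413 genes. The sign of Arc turned without day 35 meth replicate 6 (-0.16), day 35 saline replicate 11 (-0.028) or day 2 saline replicate 13 (-0.17).

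The comparison of day 35 with day 2 asked what differed between the withdrawal days within a drug group. For saline rats the day counts time since saline self-administration, not withdrawal from a drug. In meth rats, Npas4 was 2.19-fold higher at day 35, a log2 fold change of 1.13 (SE 0.44, interval 1.12- to 4.27-fold). Npas4 and Bdnf were each higher at day 35 in 4 of 4 lanes, Arc in 3 of 4, and Ntrk2 lower in 4 of 4. For these counts too, no share over all genes was taken. Npas4 missed the threshold (unadjusted p = 0.026, edgeR adjusted p = 0.23; exact permutation p = 0.057). For Arc the log2 difference was 0.97 (SE 0.45, interval 0.989- to 3.86-fold, edgeR adjusted p = 0.32) and for Bdnf 0.20 (SE 0.12, edgeR adjusted p = 0.45, interval 0.962- to 1.37-fold). For Ntrk2 it was -0.15 (SE 0.041, interval 0.85- to 0.959-fold), with an unadjusted p of 0.0021 and an edgeR adjusted p of 0.073. It passed with DESeq2 (adjusted p = 0.032) and, with edgeR, without day 2 meth replicate 1 (adjusted p = 0.028). The Ntrk2 groups did not overlap, as for 11.4% of genes tested in this comparison, and the exact permutation p was 0.0286, the smallest possible, 1 of 16 such tests run. Groups without overlap always give 4 of 4 lanes and this smallest p, so neither adds to the lack of overlap. edgeR called 1.83% of genes tested and 0 of the 4. Of the 4 genes, 2 had an unadjusted edgeR p under 0.05, as had 2472 of the 15413 genes. The Ntrk2 values here and in the day 2 comparison share the day 2 meth libraries and so are not separate evidence.

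In saline rats, Npas4 was 2.94-fold higher at day 35 than at day 2, a log2 fold change of 1.56 (SE 0.47, interval 1.46- to 5.94-fold). Npas4 was higher in 4 of 4 lanes, Arc and Ntrk2 in 3 of 4 and Bdnf in 1 of 4, again without a share over all genes. Npas4 did not pass (unadjusted p = 0.0057, edgeR adjusted p = 0.42; exact permutation p = 0.057). The pools of the days overlapped for all 4 genes, and for 3.86% of genes tested they did not. The log2 fold change of Arc was 0.79 (SE 0.45, edgeR adjusted p = 0.66, interval 0.873- to 3.41-fold). Bdnf and Ntrk2 were close to equal between the days, at 0.022 (SE 0.12, edgeR adjusted p = 0.98, interval 0.847- to 1.22-fold) and 0.040 (SE 0.041, edgeR adjusted p = 0.85, interval 0.968- to 1.09-fold). The sign of Bdnf turned without day 35 saline replicate 10 (-0.098) or day 2 saline replicate 13 (-0.0038) or 16 (-0.030). edgeR called 0% of genes tested, with 1338 genes at an unadjusted p under 0.05, Npas4 among them; limma-voom called 0 genes and DESeq2 37, none of the 4, and DESeq2 gave Npas4 no adjusted p.

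Because Npas4 was higher at day 35 in both drug groups, the days were also compared over the average of the drug groups, a comparison chosen after these values were seen. Npas4 was 2.54-fold higher at day 35, a log2 fold change of 1.34 (SE 0.32, interval 1.56- to 4.12-fold), from a mean of 8.96 to 22.6 CPM. It had an unadjusted p of 0.0012 and an edgeR adjusted p of 0.070; with lane as a block it passed (log2 fold change 1.28, adjusted p = 0.046), as with DESeq2 (adjusted p = 0.0024), and without day 35 saline replicate 11 (adjusted p = 0.031). Permuting the days within each drug group gave an exact p of 0.0029, the smallest possible being 0.000408. Arc was 1.84-fold higher (log2 fold change 0.88, SE 0.32, interval 1.13- to 2.97-fold). Its unadjusted edgeR p was 0.018, its edgeR adjusted p 0.21 and its exact permutation p 0.021. For Bdnf the log2 difference was 0.11 (SE 0.085, edgeR adjusted p = 0.59) and for Ntrk2 -0.054 (SE 0.029, edgeR adjusted p = 0.40). edgeR called 1.06% of genes tested and 0 of the 4. Of the 4 genes, 2 had an unadjusted edgeR p under 0.05, as had 2350 of the 15413 genes. Depth moved with the day, 20.33 to 37.48 M gene reads at day 2 and 31.85 to 48.47 M at day 35; with all libraries thinned to 20.33 M gene reads, the log2 fold change of Npas4 was 1.33 (edgeR adjusted p = 0.088). The day groups also differed in index, and the ages of the rats were not given. Day therefore cannot be told apart from index or from any difference in age.

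Averaged over the days, the log2 fold changes of meth against saline rats were -0.25 for Arc (SE 0.32, edgeR adjusted p = 0.93), -0.12 for Npas4 (SE 0.32, edgeR adjusted p = 0.97), -0.036 for Bdnf (SE 0.085, edgeR adjusted p = 0.97) and 0.044 for Ntrk2 (SE 0.029, edgeR adjusted p = 0.81). The 95% intervals on the log2 scale ran from -0.94 to 0.44 for Arc, -0.82 to 0.59 for Npas4, -0.22 to 0.15 for Bdnf and -0.018 to 0.10 for Ntrk2. The intervals of the ligand and its receptor were thus much narrower than those of the immediate early genes. The sign of Npas4 turned without day 35 saline replicate 9 (0.086) or day 2 saline replicate 13 (0.019), and that of Bdnf without day 35 saline replicate 10 (0.020). edgeR called 0.013% of genes tested and 0 of the 4; this comparison too was added after the values were seen.

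**Figure D4:**
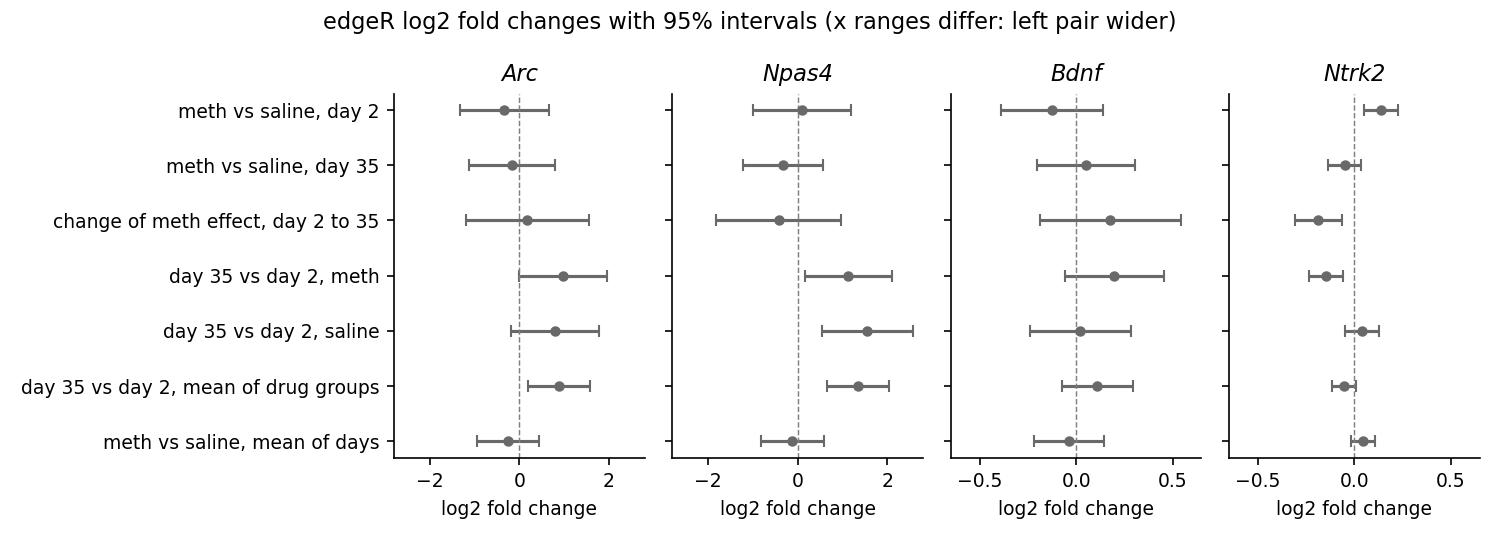
edgeR log2 fold changes (horizontal; the Arc and Npas4 axes are wider than those of Bdnf and Ntrk2) with unadjusted 95% intervals for the 4 genes in 7 comparisons (vertical). The intervals of Npas4 lie above 0 between the days, and that of Arc only between the days averaged over drug groups. Those of Ntrk2 are narrow and leave 0 at day 2, in the change of the meth effect and between the days in meth rats. No value passed after adjustment over all genes.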

How the data were processed

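Poly(A) RNA of 16 orbitofrontal libraries (TruSeq RNA v2, Illumina) was sequenced, per the labels' protocols. The deposited values are raw read counts per Ensembl gene made by the authors with TopHat, HTSeq and build rn4, per the submitters' processing notes; versions, annotation release and strand setting were not given in the sources used here, so reads of overlapping antisense genes cannot be told apart. The 12 central amygdala samples were not analysed here. The labels call withdrawal short or long, and the days come from the design text. The members and lists were chosen with earlier results of these data known.

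The 5 summary rows of HTSeq, 31.13 to 32.61% of reads, were left out. Counts were filtered (filterByExpr), scaled (TMM) and fitted with edgeR 4.0.16 (quasi-likelihood, Benjamini-Hochberg over 15413 genes, threshold 0.05) in 1 model of all 4 groups. Exact permutation tests and correlations used log2(CPM + 0.5); the 16 planned exact tests are unadjusted, and 100000 resamples were drawn for correlations. DESeq2 1.42.0, limma-voom 3.58.1, other filters and scalings, a lane block and leaving out libraries were alternatives. The contrasts averaged over drug groups or days, thinning and leaving out the 2 libraries farthest on principal component 1 were added after the data were seen. The fit was tested on simulated data.

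Lane, from the labels, pairs the libraries. The 24 same-lane pairs had a mean correlation of deviations of 0.031 (-0.296 to 0.251), against -0.01 for 72 other pairs. For the counts of lanes, the share over all genes was not taken. No 2 libraries of a group agreed within sampling noise (chi-square per degree of freedom 5.19 to 17.01 over 24 pairs). Named genes were the 4 members and the 2 genes most like each by r. Identifiers could not be matched to symbols with the reference used here, so the planned lists of pathway genes and cell type markers were not run. Intervals cover the spread between pools.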

Additional observations from a re-analysis of the deposited data

How the results depend on the processing

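With DESeq2 the genes called numbered 115 for meth against saline at day 2, 5 at day 35, 83 for the change of the meth effect, 554 and 37 between the days in meth and saline rats, and 482 and 29 for the day and meth contrasts averaged. The change of the meth effect gave 8 genes with median-ratio scaling, 9 with a filter of 1 CPM in 4 libraries, 9 with limma-voom, 4 with lane as a replicate block, 6 after thinning and 3 without the 2 libraries farthest on principal component 1. Without those 2, day 2 gave 10 genes, the days in meth rats 116 and the averaged days 70. Leaving out 1 library gave 6 to 21 genes at day 2, 0 to 1 at day 35, 0 to 17 for the change, 104 to 305 and 0 to 2 between the days in meth and saline rats, and 59 to 228 and 1 to 4 for the averaged contrasts. Ntrk2 between the days in meth rats passed with DESeq2 (-0.14, adjusted p = 0.032) and Npas4 between the averaged days with DESeq2 (1.33, adjusted p = 0.0024) and with the lane block (1.28, adjusted p = 0.046); the block changed no other call of the 4 genes. Signs turned for Bdnf between the days in saline rats with limma-voom (-0.0004025) and for Arc in the change of the effect without the 2 libraries (-0.12); the cause was not tested.

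Leaving out 1 library, log2 fold changes at day 2 ran from -0.56 to 0.011 for Arc and -0.090 to 0.37 for Npas4, and at day 35 from -0.50 to 0.079 for Arc, -0.60 to 0.078 for Npas4 and -0.042 to 0.17 for Bdnf. They ran from -0.17 to 0.42 for Arc in the change of the effect, -0.098 to 0.12 for Bdnf between the days in saline rats, -0.25 to 0.086 for Npas4 and -0.085 to 0.020 for Bdnf in the averaged meth contrast, -0.18 to -0.11 for Ntrk2 between the days in meth rats and 1.14 to 1.48 for Npas4 between the averaged days. On deviations from the group means r turned to 0.25 for Arc with Ntrk2, 0.424 for Npas4 with Ntrk2 and 0.0255 for Bdnf with Ntrk2, and on deviations from the lane means to 0.0221 for Npas4 with Ntrk2. Of 448 values of the 4 genes with 1 library left out 428 kept sign and side of the threshold, and of 240 under the other alternatives 235 did. The 448 include fits that left out a library outside the groups compared. Since 0 of the 4 genes passed in the main fit, keeping the side of the threshold says little about stability. Fits of the compared groups alone gave no value for the change of the effect or the averaged contrasts. Of the 4 genes Npas4 had the fewest reads, 141 in its lowest library. Its counting error of at most 8.42% was still below its variation within groups of 24 to 61.7%.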

Other observations

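The balance of the 2 immediate early genes was given by Npas4 reads per 100 Arc reads. It ran from 4.76 to 8.36 in day 2 saline pools (mean 5.99 ± 1.62, SD, n = 4) and from 6.93 to 8.56 in day 2 meth pools (7.53 ± 0.714). At day 35 it ran from 6.34 to 11.5 in saline pools (8.67 ± 2.23) and from 5.53 to 19.1 in meth pools (9.95 ± 6.23). The value of 19.1 belongs to day 35 meth replicate 7, and the other 3 pools of that group stood at 8.66, 6.53 and 5.53. The ranges of all 4 groups overlapped, and no test of this ratio was run.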
